A study of Mus musculus with 8 samples.

Results

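The genes described here were 10 immediate early response genes of the mouse, Egr1, Nr4a1, Klf4, Klf2, Klf6, Ier2, Ier3, Dusp1, Myc and Atf3. They were chosen by name as a class, not by a threshold on a measured value, though earlier results of these data were known. Each symbol was matched to its Entrez GeneID among the 23403 genes of the count table. All 10 were found and all 10 had enough reads to be tested, among 13619 genes that passed the filter on low counts. The question put to them was whether they differed between Hepa-1 cells after a short exposure to hexavalent chromium and control cells, and whether chromatin near them was listed as opened by chromium.

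Hepa-1 (Hepa-1c1c7) is a mouse hepatoma line, here grown in medium with serum. RNA-seq was available here for 4 libraries, 2 from cells exposed for 90 minutes to 25 µM Cr(VI) (CrK2O4 in the labels) and 2 from cells labelled only as control, whose labels do not say how long they had been passaged. FAIRE-seq, which recovers DNA that formaldehyde has not fixed to protein and so marks open chromatin, was represented by 2 peak lists made from 1 treated and 1 control library each. The lists gave regions open in treated relative to control cells, the former after the same short exposure to 25 µM and the latter after 20 passages at 0.5 µM.

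Immediate early genes are those that a cell transcribes within minutes of a growth factor, stress or toxic signal, from promoters that are already poised and without the need for new protein. Mitogen-activated protein (MAP) kinases reach them mainly through serum response factor (SRF), which binds CArG boxes, and through factors of the CREB and ATF group, which bind the cyclic AMP response element (CRE). Many of their products are transcription factors, others are feedback inhibitors of the same kinases, and their transcripts are typically short-lived, with copies of the pentamer ATTTA in the 3′ untranslated region (3′ UTR) that decay factors recognise. In liver and hepatoma cells the class is known for its surge after partial hepatectomy, serum addition and oxidative stress.

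After 25 µM Cr(VI), Nr4a1 transcripts rose 3.41-fold and Klf4 transcripts fell to 0.56 of the control level, and both differences were larger than the spread between libraries. The other 8 genes did not pass the test. For Ier2 and Klf6 the 2 groups lay within a narrow band. For Egr1 both treated libraries lay below the controls, with an unadjusted p of 0.00861 and an adjusted p of 0.0781 by edgeR. For Klf2, Ier3, Dusp1, Myc and Atf3 the 2 treated libraries stood apart from each other, by 0.72 to 2.19 on the log2 scale. The share of tested genes with a smaller gap was 78.6% for Myc, 80.4% for Dusp1 and 93.3% to 99.3% for the other 3. In all, 2 of 10 genes were called at an adjusted p under 0.05 by edgeR's quasi-likelihood test, 1 higher and 1 lower, against 4.63% of all tested genes (631 of 13619), of which 1.78% were higher and 2.85% lower. DESeq2 called 3 of the 10, Nr4a1 higher and Klf4 and Klf2 lower, against 14.2% of the genes it tested (2015 of 14170). No peak of either FAIRE list lay within 10 kb of any of the 10 genes.

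The libraries held between 32319676 and 37696116 counts. The control libraries were closely alike, with 83 of 13619 tested genes more than 2-fold apart, whereas 1404 genes were more than 2-fold apart between the treated libraries. Nothing in the labels says that the duplicates came from separate cultures, so the p-values measure the spread between these libraries, which may be technical. With 2 libraries against 2, an exact permutation test cannot go below p = 0.333 and was not used. Of the hepatocyte markers, Alb (albumin) was between 905 and 3667 CPM (reads scaled to library size), while Hnf4a was between 0.230 and 0.518 and Apoa1 was at or near 0. The summed hepatocyte markers were 5317 and 5888 CPM in treated and 2205 and 2268 in control libraries, with 2 of 7 tested markers called (Alb and Ttr, both higher). Summed fibroblast markers were 1205 and 1370 against 652 and 663 CPM, with Thy1 at 0 in all libraries and Col1a2 near 0. Of the 3 tested fibroblast markers 1 was called, higher. Their log2 fold changes ran from −0.47 to 1.16, and 1 of the 3 was negative. Macrophage markers summed to 44.9 and 63.5 against 63.1 and 63.0 CPM (0 of 3 called by edgeR and 0 by DESeq2, 2 with an unadjusted p under 0.05), with Ptprc and Adgre1 near 0. Endothelial markers summed to 1.92 and 2.38 against 0.633 and 0.691 CPM (Pecam1 called, higher), with Cdh5 at 0. The part of these differences in the results was not tested.

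The RefSeq promoter table (GRCm38.p6, 250 bases before to 50 bases after the annotated start) held 7 of the 10 genes, and Egr1, Ier2 and Myc were not in it. Several elements were searched on both strands in 32851 promoters, of which 13492 belonged to tested genes. Promoters of Nr4a1 and Klf4 are shown because these were the members that passed the test in opposite directions, and that of Dusp1 because it held the complete palindromic CRE. Capitals mark TGACG or its complement CGTCA, which is the core of the CRE, and GCGNGGGCG or its complement, which is the motif of the EGR factors.
Nr4a1, chr15:101266596-101266895, + strand: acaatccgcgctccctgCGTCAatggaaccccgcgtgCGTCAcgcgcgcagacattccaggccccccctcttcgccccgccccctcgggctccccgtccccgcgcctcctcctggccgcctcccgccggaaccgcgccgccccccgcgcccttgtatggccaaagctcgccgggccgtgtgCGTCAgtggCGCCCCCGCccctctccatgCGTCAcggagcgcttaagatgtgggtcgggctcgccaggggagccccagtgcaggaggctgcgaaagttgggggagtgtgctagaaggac
Klf4, chr4:55532426-55532725, − strand: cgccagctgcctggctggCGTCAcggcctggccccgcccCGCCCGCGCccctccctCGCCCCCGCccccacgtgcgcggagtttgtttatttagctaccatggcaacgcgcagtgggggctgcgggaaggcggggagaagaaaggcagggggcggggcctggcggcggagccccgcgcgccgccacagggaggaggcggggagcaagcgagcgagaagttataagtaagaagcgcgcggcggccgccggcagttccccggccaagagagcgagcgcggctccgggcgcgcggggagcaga
Dusp1, chr17:26508423-26508722, − strand: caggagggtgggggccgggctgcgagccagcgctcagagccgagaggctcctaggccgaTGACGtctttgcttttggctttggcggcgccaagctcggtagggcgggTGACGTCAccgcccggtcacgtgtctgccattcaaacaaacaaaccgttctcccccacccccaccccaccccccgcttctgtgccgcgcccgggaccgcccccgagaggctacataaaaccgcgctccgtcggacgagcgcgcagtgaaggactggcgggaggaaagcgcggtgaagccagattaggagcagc

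The Nr4a1 promoter window held 4 copies of CGTCA and an EGR motif. The copies began at −233, −213, −69 and −40 and the EGR motif at −60, when the annotated start is counted as 0. This window lay inside the Nr4a1 gene span and not at its 5′ end, and any start further upstream was not searched. At least 4 matches of TGACG, counted on both strands, were found in 68 of the promoters of tested genes (0.504%). Klf4 held a single CGTCA at −232 and 2 EGR motifs at −211 and −194. In Dusp1 the palindrome TGACGTCA, which contains TGACG on both strands, lay at −143, and a further TGACG lay at −191. Over the 7 promoters, TGACG was present in 5 (Atf3, Klf4, Klf2, Nr4a1 and Dusp1) against 29.6% of the promoters of tested genes and 20.8% of all promoters. TGACGTCA was present in 1, against 2.90% and 1.79%. The EGR motif was present in 3 (Klf4, Klf2 and Nr4a1), against 9.69% and 5.55%. The E-box CACGTG, bound by MYC and its partners, was present in 3 (Klf4, Klf6 and Dusp1), against 9.61% and 7.15%. The GC box GGGCGG, a site of SP and KLF factors, was present in all 7, against 59.5% and 35.7%, and its matches overlapped those of the EGR motif in Klf4, Klf2 and Nr4a1. No CArG box (in 1.38% of promoters of tested genes and 1.63% of all) and no AP-1 element TGANTCA (in 5.83% and 7.81%) lay in any of the 7 windows. These counts describe letters in a window of 300 bases, not bound sites.

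The 3′ UTRs differed widely in their number of ATTTA pentamers. The 30 bases with the most pentamers are given for the 3 genes richest in them per kb and for Klf4, which had few, with the pentamers in capitals.
Ier3, from base 174 of a 3′ UTR of 601 bases: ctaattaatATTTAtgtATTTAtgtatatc
Dusp1, from base 94 of a 3′ UTR of 689 bases: agctggtccttATTTATTTAacacccccct
Nr4a1, from base 449 of a 3′ UTR of 543 bases: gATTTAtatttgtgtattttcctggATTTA
Klf4, from base 838 of a 3′ UTR of 988 bases: atatgtaatataaATTTAagcaaacttcta

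The Ier3 3′ UTR of 601 bases carried 5 pentamers, which is 8.32 per kb and more than in 98.2% of tested coding genes. Dusp1 followed with 5.81 per kb, Nr4a1 with 5.52, Myc with 4.42, Atf3 with 2.53, Klf6 with 2.25, Egr1 with 1.68, Klf2 with 1.36 and Klf4 with 1.01, and Ier2 had no pentamer in 755 bases. Thus 9 of 10 genes (90.0%) carried the pentamer, against 65.5% of 12647 tested coding genes, with a median of 2.39 per kb against 1.21. The longer nonamer TTATTTATT was found only in Dusp1, with 2 copies, and in 7.28% of tested coding genes. The genes were compact: 8 of 10 had at most 4 exons, against 21.1% of tested coding genes, and the median gene span was 4386 bases against 22576. The median mRNA length of 2188 bases was nearer to that of tested coding genes, at 2890.

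**Figure D1:**
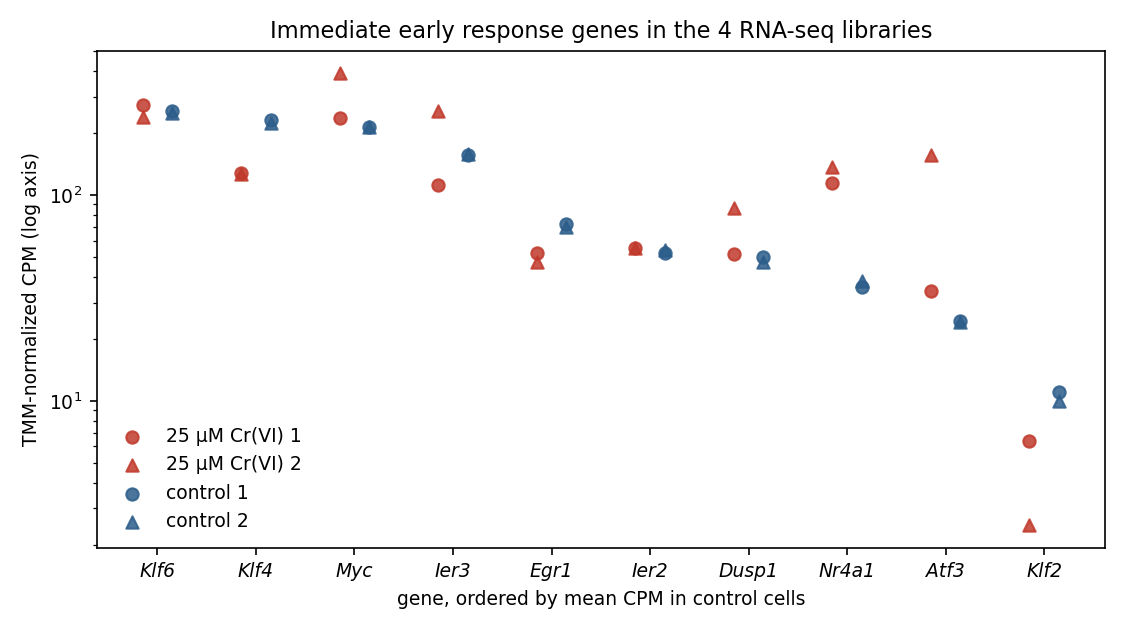
TMM-normalized CPM (log axis) of each gene in the 4 libraries, genes ordered by their mean in control cells. Red symbols are the 2 libraries of cells given 25 µM Cr(VI) and blue symbols the 2 control libraries. The control symbols nearly coincide for every gene, whereas the red symbols of Atf3 (34.0 and 155.5) and Klf2 (6.35 and 2.49) are far apart.

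Levels below are in CPM scaled by the trimmed mean of M-values (TMM), so they are shares of a library and compare 1 gene between libraries. A fold change is the edgeR estimate on the log2 scale of treated over control cells, given with its standard error (SE) and 95% interval, and the adjusted p is that of the quasi-likelihood test over all 13619 tested genes. In RNA from a whole culture, a difference in RNA per cell and a difference in the number of expressing cells cannot be told apart. Libraries are named treated 1, treated 2, control 1 and control 2 after their labels.

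Nr4a1 (GeneID 15370, chr15:101253902-101274795, + strand, 7 exons in the transcript used) encodes the orphan nuclear receptor NUR77, a transcription factor that needs no known ligand. It stood at 114.2 CPM in treated 1 and 137.3 in treated 2, from 3865 and 3976 reads, and at 35.8 in control 1 and 38.0 in control 2, from 1243 and 1487 reads. Both treated libraries were thus well above both controls, and the distance between the groups was several times that within either. The mean of 125.8 ± 16.3 CPM in treated cells was compared with 36.9 ± 1.61 in controls (SD, n = 2 each). This gave a log2 fold change of 1.77 (SE 0.14, 95% interval 1.39 to 2.14) with an edgeR adjusted p of 0.0282, and 96.9% of tested genes had a lower log2 fold change. When either library of a group was left out the estimate lay between 1.63 and 1.90, and the gene was called at 0.05 in every alternative fit that was run, the highest adjusted p being 0.0346. The 1 promoter window searched for Nr4a1, with 4 CRE cores, is printed above, and the Nr4a1 3′ UTR was the third richest of the 10 in ATTTA.

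Egr1 (GeneID 13653, chr18:34861207-34864956, + strand, 2 exons) encodes a zinc-finger factor that binds the GC-rich EGR motif and is among the most used markers of the immediate early response. Its level was 52.3 CPM in treated 1 and 47.4 in treated 2, against 71.9 in control 1 and 69.9 in control 2. Both treated libraries lay below both controls. The mean was 49.8 ± 3.41 against 70.9 ± 1.46 CPM (SD, n = 2 each), and the log2 fold change was −0.51 (SE 0.11, 95% interval −0.81 to −0.21), with an edgeR adjusted p of 0.0781. The estimate moved between −0.57 and −0.44 on leaving out a library. The adjusted p under these fits ran from 9.74e-27 without treated 1 to 0.719 without control 1, and the small values arise where a lone treated library is given the spread of the controls. DESeq2 gave an adjusted p of 0.0897. Other EGR genes were scarce: Egr2 was between 0.307 and 1.00 CPM and Egr3 and Egr4 had no read in any library.

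Klf4 (GeneID 16600, chr4:55527137-55532475, − strand, 5 exons) belongs to the Krüppel-like factors (KLF), zinc-finger proteins that bind GC boxes and CACCC sequences, and is known for slowing the cell cycle and as a reprogramming factor. It stood at 128.2 and 126.2 CPM in treated 1 and 2 and at 229.9 and 224.4 in control 1 and 2. The treated libraries agreed closely, with a gap that was smaller for only 3.70% of tested genes, and both were far below the controls. The mean fell from 227.2 ± 3.89 in control to 127.2 ± 1.44 CPM in treated cells (SD, n = 2 each). As a log2 fold change this was −0.84 (SE 0.10, 95% interval −1.12 to −0.56), with an edgeR adjusted p of 0.0370 and a DESeq2 adjusted p of 0.000632. Without control 1 or control 2 the estimate was −0.84 and −0.87 but the edgeR adjusted p rose to 0.340 and 0.302, so the call was lost in both fits.

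Klf2 (GeneID 16598, chr8:72319062-72321654, + strand, 3 exons), best known as a shear-induced factor of endothelium, was the least abundant of the 10. Its level was 6.35 CPM in treated 1 and 2.49 in treated 2, from 215 and 72 reads, and 11.0 in control 1 and 9.92 in control 2, from 384 and 388 reads. Both treated libraries were below both controls, but they were themselves 1.33 apart on the log2 scale, a gap that 95.1% of tested genes did not reach. The log2 fold change was −1.24 (SE 0.47, 95% interval −2.50 to 0.025) with an edgeR adjusted p of 0.169, and it was −2.06 without treated 1 and −0.72 without treated 2. DESeq2 gave −1.25 with an adjusted p of 0.0335.

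Klf6 (GeneID 23849, chr13:5861489-5870393, + strand, 4 exons), a widely expressed KLF first known as a core promoter binding protein, was at 273.9 and 238.2 CPM in treated 1 and 2 and at 255.5 and 249.9 in control 1 and 2. The control values fell between the treated ones. The log2 fold change was 0.019 (SE 0.13, 95% interval −0.33 to 0.37; edgeR adjusted p = 0.937), so a difference beyond 0.37 in either direction lay outside the interval. Its sign turned with the library left out, at −0.075 without treated 1 and 0.11 without treated 2. With library sizes alone it was −0.086, still above the median of all tested genes, which that scaling moved from −0.0047 to −0.11. The 3 KLF members thus gave 1 gene that fell, 1 with both treated libraries low but apart, and 1 whose groups overlapped. Of 14 further KLF genes 8 were tested. By edgeR 1 was called, Klf11, and was higher, while DESeq2 called 3, of which 2 were higher and 1 lower. The median edgeR log2 fold change of the 8 was −0.11.

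Ier2 (GeneID 15936, chr8:84661331-84662852, − strand), an intronless gene for a small nuclear protein, was the steadiest of the 10. It stood at 55.3 and 55.2 CPM in treated 1 and 2 and at 51.9 and 53.8 in control 1 and 2. The treated libraries were a little above the controls, by 0.064 on the log2 scale (SE 0.11, 95% interval −0.22 to 0.35; edgeR adjusted p = 0.706), a difference that turned to −0.047 with library sizes alone, where the median of all genes was −0.11. Only 0.463% of tested genes had a smaller gap between the treated libraries.

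Ier3 (GeneID 15937, chr17:35821713-35822911, + strand, 2 exons), also called IEX-1, encodes a stress-inducible protein that modulates apoptosis and ERK signalling. Its 2 treated libraries lay on opposite sides of the controls: 112.0 CPM in treated 1 and 256.2 in treated 2, against 156.1 in control 1 and 157.5 in control 2. The gap of 1.19 on the log2 scale between the treated libraries was larger than that of 93.3% of tested genes. The log2 fold change was 0.23 (SE 0.41, 95% interval −0.86 to 1.32; edgeR adjusted p = 0.730), and it was 0.72 without treated 1 and −0.49 without treated 2. No direction can therefore be given.

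Dusp1 (GeneID 19252, chr17:26505591-26508472, − strand, 4 exons) encodes MKP-1, a nuclear phosphatase that switches off p38, JNK and ERK and so closes the response that induces it. It was at 51.4 CPM in treated 1 and 86.4 in treated 2, against 49.8 in control 1 and 47.1 in control 2. Treated 1 was barely above control 1, and only treated 2 stood apart. The log2 fold change was 0.51 (SE 0.27, 95% interval −0.22 to 1.24) with an edgeR adjusted p of 0.275, and it was 0.086 without treated 2 and 0.85 without treated 1. Of 9 other MAP kinase phosphatases 8 were tested and 0 were called by edgeR, with 3 at an unadjusted p under 0.05 and 0 called by DESeq2, and their median log2 fold change was 0.34.

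Myc (GeneID 17869, chr15:61985341-61990361, + strand, 3 exons) encodes the E-box factor that drives ribosome production and growth. It stood at 236.9 CPM in treated 1 and 389.2 in treated 2, against 214.0 and 214.4 in the controls. Both treated libraries were higher, treated 1 by 0.15 and treated 2 by 0.86 on the log2 scale over the control mean. The fitted log2 fold change was 0.55 (SE 0.26, 95% interval −0.16 to 1.25; edgeR adjusted p = 0.238), and it was 0.14 without treated 2 and 0.87 without treated 1. Among 11 tested partners and antagonists of MYC, Mnt, a repressor that competes for the partner MAX, was the 1 gene called by edgeR, while DESeq2 called 2, both higher. Mnt was at 82.8 and 73.7 CPM in treated 1 and 2 and at 45.9 and 43.8 in the controls, a log2 fold change of 0.80 (SE 0.12; edgeR adjusted p = 0.0446). This call was lost without control 1 (edgeR adjusted p = 0.387) or control 2 (0.460). Of 16 tested MYC target genes of ribosome production and metabolism 0 were called by edgeR, 0 had an unadjusted p under 0.05 and 0 were called by DESeq2. Their median log2 fold change was −0.028, but the treated libraries differed. The 17 listed targets summed to 5921.6 CPM in treated 1 and 9299.2 in treated 2, against 8153.5 and 8232.1 in the controls. The groups overlapped for 10 of the 16, and their median treated gap was 0.59 on the log2 scale, against 0.38 over all tested genes.

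Atf3 (GeneID 11910, chr1:191170296-191183333, − strand, 4 exons) encodes a stress-induced member of the ATF/CREB family that usually represses from CRE and AP-1 sites. Its level was 34.0 CPM in treated 1 and 155.5 in treated 2, from 1149 and 4503 reads, against 24.4 and 24.1 in the controls, from 849 and 944 reads. Both treated libraries were above both controls, yet treated 2 alone carried most of the difference, and the 2 were 2.19 apart on the log2 scale, more than 99.3% of tested genes. The mean of 94.7 ± 85.9 against 24.3 ± 0.195 CPM (SD, n = 2 each) gave a log2 fold change of 1.96 (SE 0.74, 95% interval −0.019 to 3.94) with an edgeR adjusted p of 0.166. Without treated 2 it was 0.48 and without treated 1 it was 2.69. It was 1.94 without control 1 and 1.93 without control 2, where the edgeR adjusted p was 0.00826 and 0.0123. The estimate was the largest of the 10 in size, but its interval included 0.

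**Figure D2:**
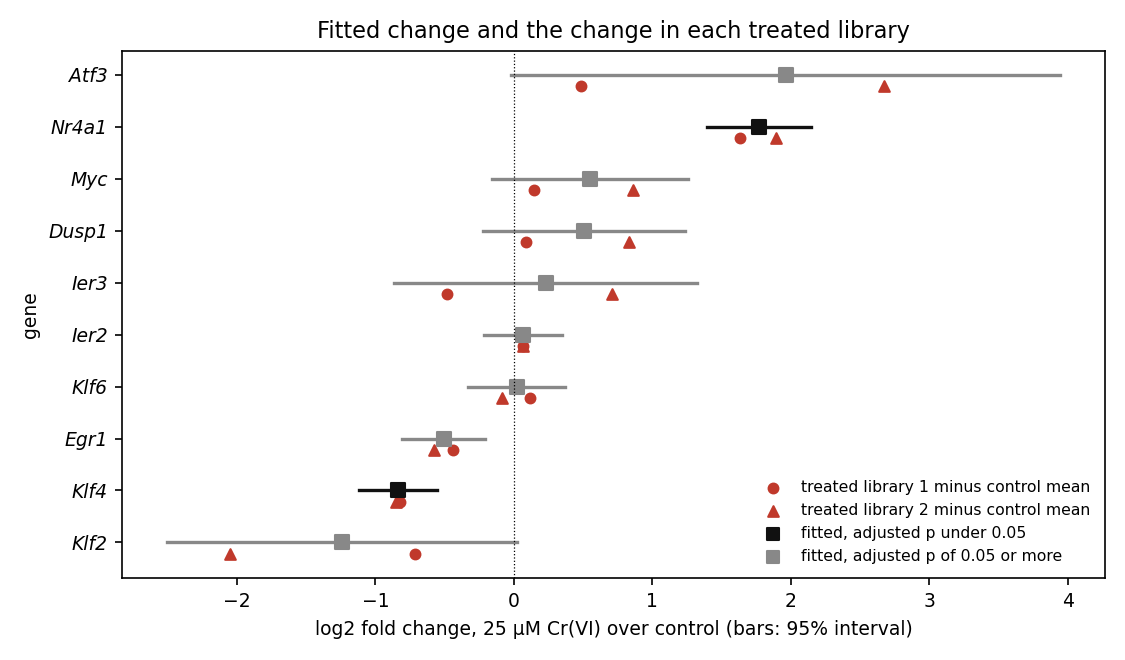
Fitted log2 fold change of each gene, treated over control, with its 95% interval (squares and bars; black where the edgeR adjusted p was under 0.05), and the change of each treated library over the control mean (red circles and triangles). Nr4a1 and Klf4 are black, with both red symbols close to the square, while the symbols of Ier3 fall on either side of 0.

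Among stress genes that share regulators with Atf3, 6 were tested, of which edgeR called 1 and DESeq2 4 (3 higher and 1 lower). The edgeR call was Trib3, a pseudokinase induced with the ATF4 arm of the stress response, at 45.0 and 53.5 CPM in treated 1 and 2 and 25.8 and 26.9 in the controls, a log2 fold change of 0.90 (SE 0.14; edgeR adjusted p = 0.0486). This call was lost without control 1 (edgeR adjusted p = 0.402) or control 2 (0.344). The gene whose profile over the 4 libraries was nearest to that of Atf3 was Ppp1r15a, which encodes the stress-induced phosphatase subunit GADD34. It stood at 81.3 CPM in treated 1 and 433.6 in treated 2, against 72.7 and 77.6 in the controls (edgeR adjusted p = 0.215), at a distance of 0.31 in log2 units among 6049 candidate genes. The nearest profile to Nr4a1 was that of Map1lc3a, which encodes the autophagosome protein LC3A, at a distance of 0.083 (log2 fold change 1.73, edgeR adjusted p = 0.0282). The nearest to Klf4 was that of Cdh2, N-cadherin, at 0.026 (log2 fold change −0.82, edgeR adjusted p = 0.0357). For the other genes the nearest were Vps35l for Egr1, Slfn9 for Klf2, Cog2 for Klf6, 4833439L19Rik for Ier2, Mif for Ier3, Wdr35 for Dusp1 and Smdt1 for Myc, at distances between 0.016 and 0.12. A likeness over 4 libraries is weak, since many genes share so short a profile.

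The 10 genes as a set showed no common direction. Both treated libraries lay above both controls for 5 genes (Nr4a1, Ier2, Dusp1, Myc and Atf3), as for 32.2% of all tested genes (4392), and below both for 3 (Egr1, Klf4 and Klf2), as for 34.0% (4634). The groups overlapped for 2, Klf6 and Ier3. The median log2 fold change was 0.15, against −0.0047 over all tested genes. The median gap between the treated libraries was 0.49 on the log2 scale against 0.38 over all tested genes, and that between the controls 0.038 against 0.058. Within the set the gap ran from 0.0024 for Ier2 to 2.19 for Atf3.

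**Figure D3:**
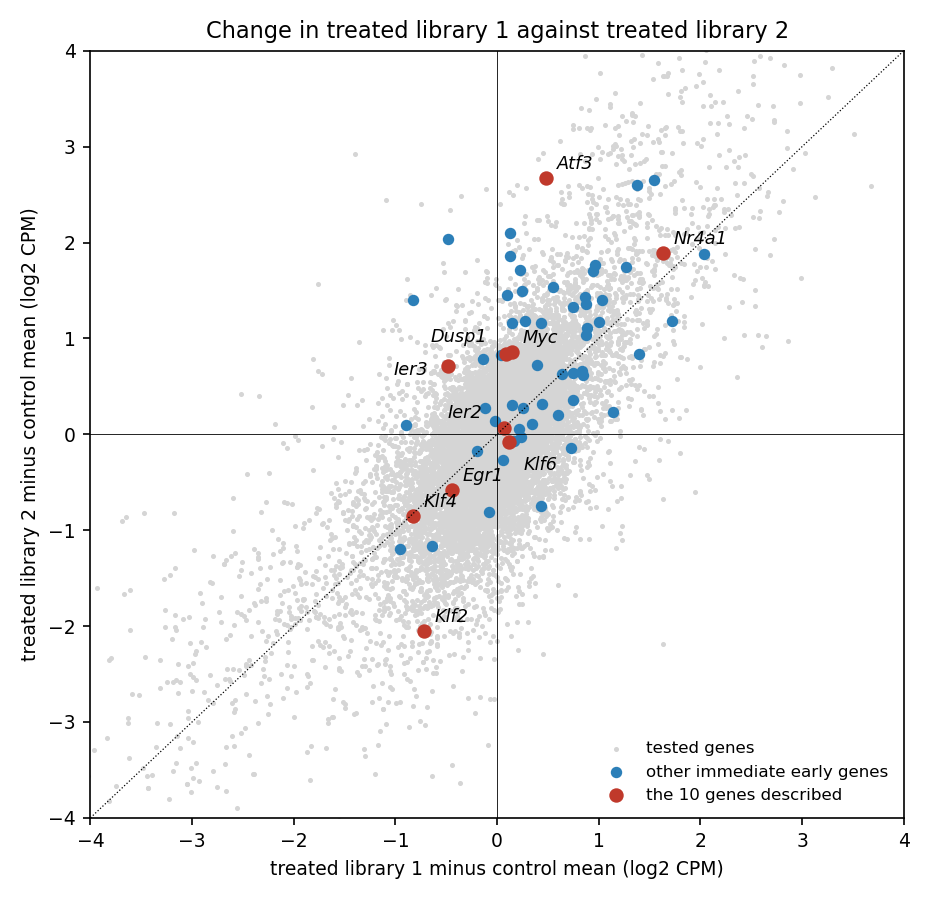
Change over the control mean in treated library 1 (horizontal) and treated library 2 (vertical), in log2 CPM, for the tested genes (grey), 53 other immediate early genes (blue) and the 10 genes described (red, named). The axes run from −4 to 4 and leave 66 tested genes outside. The dotted diagonal marks equal change, and Atf3, Ier3, Dusp1 and Myc lie above it, Klf2 lies below it, and Nr4a1, Klf4, Egr1 and Ier2 lie near it.

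Per kilobase of transcript (RPKM), the order of the 10 genes in control cells was Ier3, Myc, Klf4, Klf6, Ier2, Dusp1, Egr1, Nr4a1, Atf3 and Klf2. Their mean levels ran from 143.9 ± 0.891 RPKM for Ier3 to 5.77 ± 0.437 RPKM for Klf2 (SD, n = 2), which placed Ier3 above 96.1% and Klf2 above 40.6% of tested genes. No 2 neighbours in this order overlapped. Between these lay Myc at 89.3, Klf4 at 74.6, Klf6 at 59.9, Ier2 at 34.7, Dusp1 at 24.9, Egr1 at 23.1, Nr4a1 at 14.9 and Atf3 at 12.3 RPKM, and 9 of the 10 genes lay above the median of tested genes. In treated cells the order was Ier3, Myc, Klf6, Nr4a1, Atf3, Klf4, Ier2, Dusp1, Egr1 and Klf2. Nr4a1 moved from the eighth place to the fourth, at 50.8 ± 6.58 RPKM, and Klf4 from the third to the sixth, at 41.8 ± 0.471 RPKM. In this order Ier3 and Myc, Nr4a1 and Atf3, Atf3 and Klf4, and Ier2 and Dusp1 were neighbours whose libraries overlapped.

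For comparison, 59 further immediate early genes were listed by name, with earlier results of these data known, and 53 of them were tested. Of these 6 were called by edgeR and all 6 were higher in treated cells (1.78% of all tested genes were called higher). DESeq2 called 24, of which 22 were higher and 2 lower, against 14.2% of the genes it tested (2015 of 14170). Klf11, a repressor of the KLF family, had the highest fold of these 6, at 14.2 and 12.8 CPM in treated 1 and 2 against 3.34 and 3.50 in the controls (log2 fold change 1.98, SE 0.18, edgeR adjusted p = 0.0295). Zfp36l2, which binds AU-rich elements and promotes decay of the transcripts that carry them, was at 322.2 and 445.9 CPM against 134.2 and 132.6 (1.53, SE 0.20, edgeR adjusted p = 0.0391). Among 8 tested AU-rich element binding proteins edgeR called this 1 gene and DESeq2 called 3, all higher. Id2, an inhibitor of helix-loop-helix factors, gave 1.48 (SE 0.21, edgeR adjusted p = 0.0438), which was lost with library sizes alone (adjusted p = 0.0777). Socs3, a feedback inhibitor of cytokine receptors, gave 1.23 (SE 0.16, edgeR adjusted p = 0.0393). Errfi1, a feedback inhibitor of the EGF receptor, gave 1.00 (SE 0.13, edgeR adjusted p = 0.0378), and Tnfaip3, the NF-κB inhibitor A20, gave 0.96 (SE 0.12, edgeR adjusted p = 0.0367). Without control 1, Klf11, Zfp36l2, Socs3, Errfi1 and Tnfaip3 had adjusted p values between 0.0597 and 0.288 and were no longer called, and without control 2 the same held for Zfp36l2, Socs3, Errfi1 and Tnfaip3 (0.0808 to 0.287).

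These further genes also differed between the treated libraries. For 10 of 53 (18.9%) treated 2 was more than 2-fold above treated 1, against 4.81% of all tested genes (655), and for 1, Ccn1, it was more than 2-fold below. The 10 were Fosb, Fosl1, Jun, Btg2, Zfp36, Gadd45b, Mafk, Plk3, Csrnp1 and Sik1. Fosl1, an AP-1 subunit, was at 61.2 CPM in treated 1 and 352.9 in treated 2, against 84.8 and 86.9 in the controls. Among the 10 genes described here, Ier3 and Atf3 were more than 2-fold higher in treated 2 and Klf2 more than 2-fold lower. Fos itself was low throughout, at 9.37 and 17.8 CPM in treated 1 and 2 and 9.87 and 10.8 in the controls. The median log2 fold change of the 53 was 0.74, against −0.0047 over all tested genes, and 46 were positive (86.8% against 49.6%). Both treated libraries lay above both controls for 37, where 32.2% of all tested genes did so. They lay below both for 3, where 34.0% of all tested genes did so, and the groups overlapped for 13. Without treated 2 the median was 0.43, and without treated 1 it was 0.84.

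**Figure D4:**
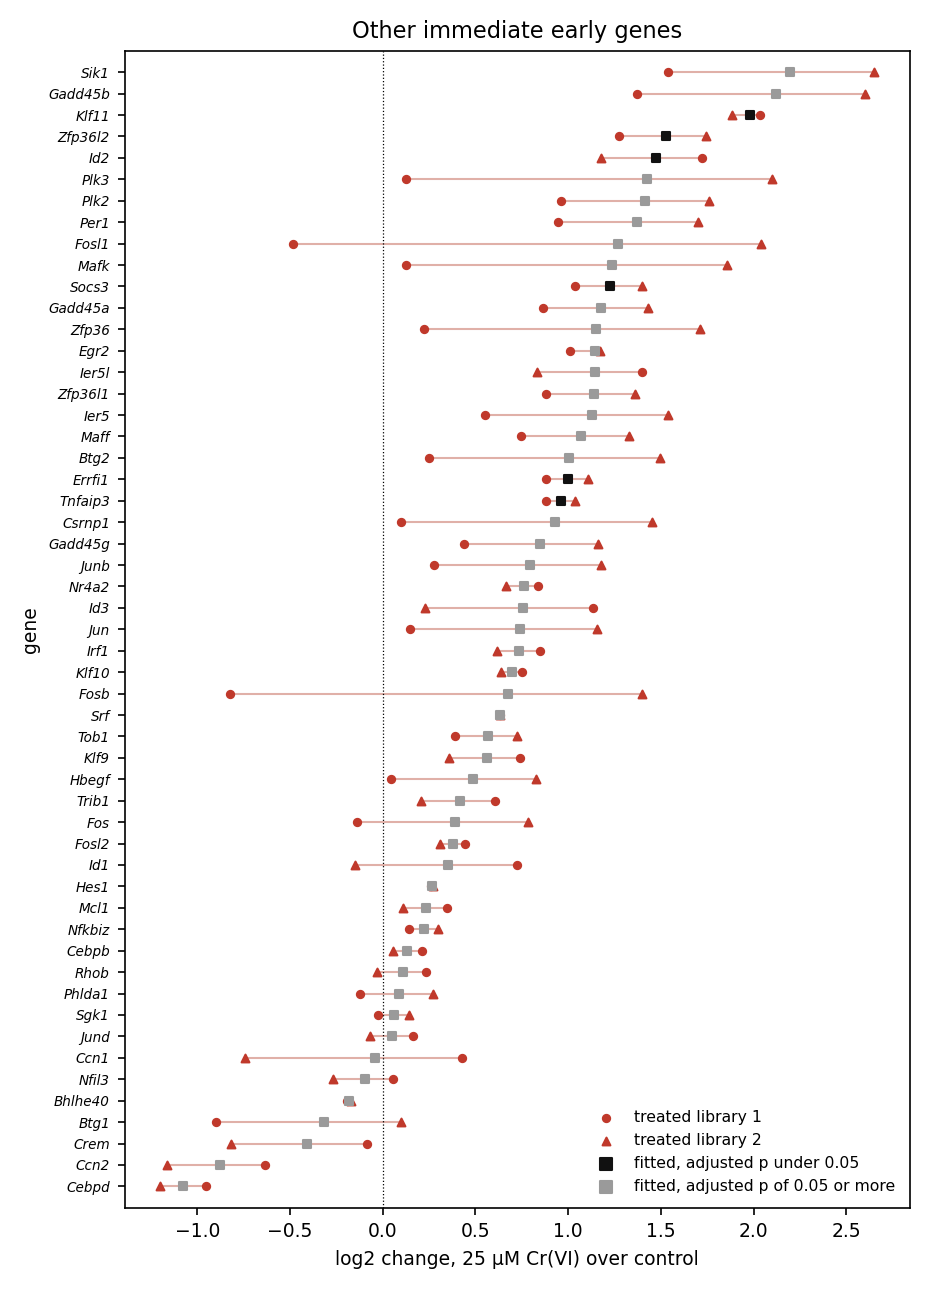
Log2 change of 53 further immediate early genes in treated library 1 (circles) and treated library 2 (triangles) over the control mean, with the fitted value between them (squares; black where the edgeR adjusted p was under 0.05). The 6 black squares are Klf11, Zfp36l2, Id2, Socs3, Errfi1 and Tnfaip3, and genes such as Fosl1, Fosb and Plk3 show long lines between their circle and triangle.

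Genes of MAP kinase and SRF signalling (kinases, Srf and its cofactors, Creb1 and Atf1) gave 0 calls of 29 tested by edgeR. Of these 29, 7 had an unadjusted p under 0.05 and 3 were called by DESeq2, and the median log2 fold change was −0.044. Srf stood at 79.7 and 79.5 CPM in treated 1 and 2 and at 51.9 and 50.8 in the controls (log2 fold change 0.63, SE 0.10, edgeR adjusted p = 0.0502) and was 1 of the 3 called by DESeq2 (adjusted p = 0.0252). It was singled out after its value was seen.

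The FAIRE lists had no peak at any of the 10 genes. Both lists held slightly fewer peaks than the study's text counted as opened, but as many as the study assigned to genomic elements. The difference from the counts in its text is unexplained. Of 2945 peaks opened by 25 µM Cr(VI), 0 lay within 10 kb of a member, whereas 11.7% of 13562 tested genes with coordinates (1589) had such a peak. Of 860 peaks opened in 0.5 µM Cr(VI), 0 lay within 10 kb, against 3.79% of tested genes (514). With so few members, 0 of 10 is near what these shares give. The shares were not matched for gene span, whose median was 4386 bases for the members against 22576 for tested coding genes. Within 50 kb there were peaks at 3 genes, Klf2, Ier3 and Dusp1, in the 25 µM list (25.4% of tested genes, 3441) and at 2, Myc and Atf3, in the 0.5 µM list (7.76%, 1052). Neither Nr4a1 nor Klf4 was among them. The median distance to the nearest peak was 105.9 kb for the 10 genes and 158.0 kb for tested genes in the 25 µM list, and 266.7 and 743.5 kb in the 0.5 µM list.

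**Figure D5:**
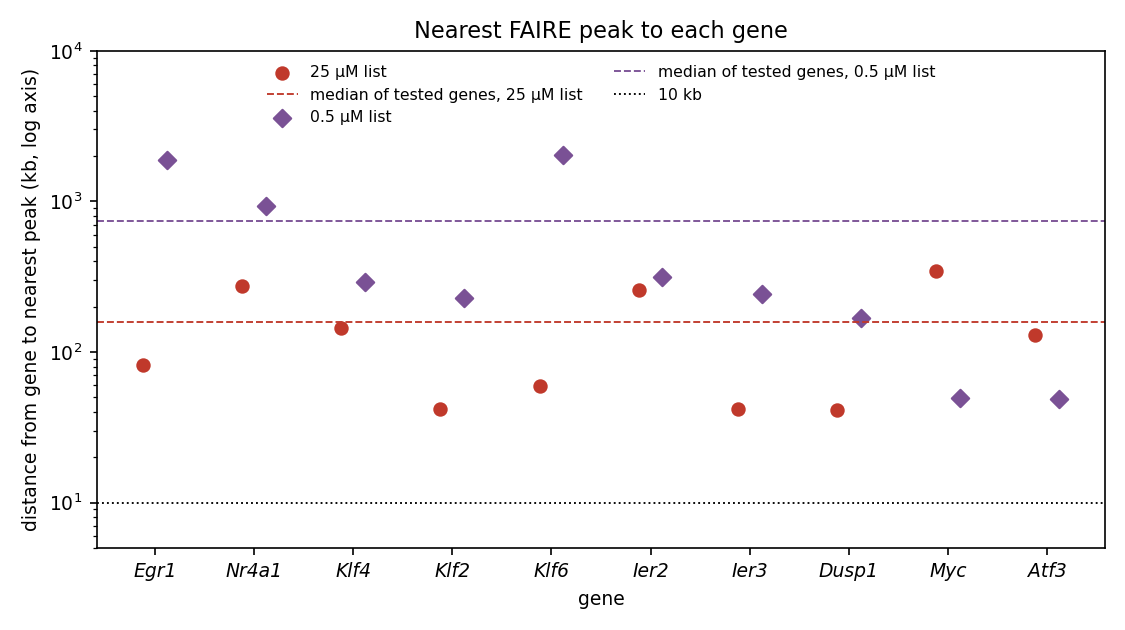
Distance in kb (log axis) from each gene to the nearest peak of the 25 µM list (red circles) and of the 0.5 µM list (purple diamonds), with the medians of tested genes as dashed lines. No symbol reaches the dotted line at 10 kb. The nearest are Dusp1, Klf2 and Ier3 at 41.1 to 41.9 kb in the 25 µM list.

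The peak of the 25 µM list nearest to Dusp1 lay 41.1 kb upstream, within the annotated gene 1700049J03Rik, and spanned 287 bases with a score of 55.1. It is shown because it was the nearest peak to any member and held an AP-1 element, TGAGTCA, in capitals. The study reported AP-1 motifs as enriched in regions opened by both treatments. The share of all listed peaks that hold the element was not counted here.
chr17:26549555-26549841, + strand: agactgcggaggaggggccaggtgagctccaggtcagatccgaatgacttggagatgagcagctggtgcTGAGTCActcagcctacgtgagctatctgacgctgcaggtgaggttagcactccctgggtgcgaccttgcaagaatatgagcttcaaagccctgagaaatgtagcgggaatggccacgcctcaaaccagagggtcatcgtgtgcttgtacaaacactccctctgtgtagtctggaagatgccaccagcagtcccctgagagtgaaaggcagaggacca

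The peak nearest to Klf2 (chr8:72363487-72363597, score 56.3) lay 41.8 kb downstream within Eps15l1, and that nearest to Ier3 (chr17:35779588-35779787, score 57.2) lay 41.9 kb upstream within 4833427F10Rik. Neither held an AP-1 element. Myc had its nearest peak of the 0.5 µM list 49.5 kb upstream, between genes (chr15:61935383-61935853, score 59.0), with 1 AP-1 element, and Atf3 had its own 48.9 kb downstream, overlapping an end of Gm46178 (chr1:191120821-191121399, score 91.8). For Nr4a1 the nearest peaks lay 275.1 and 928.3 kb away in the 25 µM and 0.5 µM lists, for Klf4 143.2 and 290.1 kb, for Klf6 59.0 and 2019 kb, for Ier2 259.0 and 315.7 kb, and for Egr1 81.7 and 1896 kb. The peak of the 0.5 µM list nearest to Ier2 overlapped the start of Junb, an AP-1 gene on the same chromosome, with its centre 134 bases from that start (chr8:84978574-84979191, score 59.9). Among the 59 further immediate early genes, 11 had a peak of the 25 µM list within 10 kb, against 11.7% of tested genes. These 11 included Arc and Gem, which had too few reads to be tested. The peak nearest to a start was that of Ier5, 137 bases away (chr1:155099698-155099849, score 57.8). In the 0.5 µM list 1 of the 59, Junb, had a peak within 10 kb, against 3.79% of tested genes. The differences from these shares were not tested. FAIRE was made without replicates, so these positions have no replicate check.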

How the data were processed

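RNA-seq read counts per gene were used as deposited. The authors aligned reads to mm10 with TopHat and counted them on Entrez genes without normalization, and they compared groups with DESeq. The counter, the annotation and the use of strand are not given in the sources used here. No annotated gene overlapped a member. Peak lists came from BWA alignment and MACS with default settings on 1 treated and 1 control library. The score column was deposited with the peaks and was taken to be the p-value score that MACS writes on a log10 scale. CASAVA 1.8 and bcl2fastq are named in the submitters' processing notes. Expression after long-term 0.5 µM Cr(VI), and regions more open in controls, were not analysed here.

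Counts were filtered with filterByExpr, scaled by TMM and tested with edgeR 4.0.16 (quasi-likelihood, group only, two-sided) in R 4.3.3, with Benjamini-Hochberg adjustment over all tested genes and a threshold of 0.05. DESeq2 1.42.0 was an alternative, as were other scalings, no filter, a replicate term and leaving out each library. RPKM values used the length of 1 RefSeq transcript per gene. Peaks were assigned to a gene when they shared a base with its span extended by 10 kb. Gene symbols were found for 23305 of 23403 GeneIDs. Sequences and gene models were from RefSeq (GRCm38.p6, the same build as mm10). Scripts were tested on simulated data. All members were named, and so was each gene of the comparison lists past the threshold, the nearest profile of each member (among genes averaging 5 log2 CPM or more) and the nearest peaks. Other genes are named only where a result turned on them, after their values were seen. The members and lists were chosen with earlier results of these data known. A hepatocyte marker of the lists is not reported here.

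Totals were 32319676 to 37696116 counts per library, every member had 72 or more reads in every library, and there were 2 libraries per group.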

Additional observations from a re-analysis of the deposited data

How the results depend on the processing

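With a replicate block, the number of genes called was 2969 (631 without it), of members 4 (2 without it) and of further immediate early genes 31 (6 without it). The samples share only a number: the correlation of deviations of same-numbered libraries was 0.091 across tested genes, with 2 pairs. Under the block the log2 fold change was −1.37 for Klf2 and 1.59 for Atf3, both called. DESeq2 called 2015 genes and 24 further immediate early genes, and gave −1.25 for Klf2, called. At an adjusted p of 0.01, edgeR called 0 genes, 0 members and 0 further genes (4176 genes had an unadjusted p under 0.05). With library sizes alone the log2 fold change of Klf6 was −0.086 and that of Ier2 −0.047, and with no filter that of Klf6 was −0.0078.

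Leaving out 1 library gave 287 to 10995 genes, 2 to 8 members and 3 to 50 further genes. The highest counts came without treated 1 (10995 genes) or treated 2 (9333), where the lone treated library is assumed to vary as the controls do. Without control 1 or 2 there were 294 and 287. The log2 fold change ranged from −0.57 to −0.44 for Egr1, 1.63 to 1.90 for Nr4a1, −0.87 to −0.83 for Klf4, −2.06 to −0.72 for Klf2, −0.075 to 0.11 for Klf6, −0.49 to 0.72 for Ier3, 0.086 to 0.85 for Dusp1, 0.14 to 0.87 for Myc and 0.48 to 2.69 for Atf3. Klf6 was reversed without treated 1 (−0.075) and without control 2 (−0.016), and Ier3 without treated 2 (−0.49). Klf4 was no longer called without control 1 (−0.84) or control 2 (−0.87). Members with a peak numbered 3 in the 25 µM list and 2 in the 0.5 µM list within 50 kb, and 0 under the other windows and score limits tried. The cause of these differences was not tested.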
